A study of Mus musculus with 6 samples.

Results

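The endoplasmic reticulum (ER) chaperone and unfolded protein response genes examined here were 10 of the 30315 genes in the expression table, taken by gene symbol: Hspa5, Hsp90b1, Calr, Canx, Pdia3, Pdia4, Pdia6, Ddit3, Atf4 and Xbp1. All 10 were found, each in 1 row, and all 10 passed the filter on low values (a mean of at least 1 FPKM, fragments per kilobase of exon, scaled to sequencing depth). The libraries came from primary renal tubular epithelial cells of C57BL/6 mouse kidney, sequenced as bulk RNA. The comparison asks which transcripts differ after an siRNA against the transcription factor Sox9 in injured tubule cells. Cells received either an siRNA against Sox9 (siSox9, 3 libraries) or the control siRNA (siNC, 3 libraries). The paper lists 1 siRNA against Sox9, and these libraries include no rescue of Sox9. Effects of Sox9 loss therefore cannot be told apart from other effects of that siRNA. Transfection preceded the injury by 12 h, and both groups then went through hypoxia/reoxygenation (H/R), which was 6 h at 1% oxygen without glucose followed by 18 h in complete medium with normal oxygen. All 6 libraries therefore carry the injury and the transfection, and the values below compare knockdown with control within H/R, not injured with uninjured cells. The age of the mice is not given in the sources used here, nor whether the libraries of a group came from separate cultures or animals, so the p-values measure only the spread between these libraries, which may be technical.

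Proteins that enter the secretory pathway fold inside the ER with the help of chaperones such as BiP (the product of Hspa5), lectin chaperones that hold sugar-bearing proteins, and protein disulphide isomerases. When unfolded proteins build up, the sensors IRE1, PERK and ATF6 start the unfolded protein response: IRE1 splices Xbp1 mRNA, PERK slows translation while favouring that of Atf4 mRNA, and ATF6 is cut to release a transcription factor. XBP1 and ATF6 raise chaperone genes, and ATF4 raises amino acid and redox genes and Ddit3 (CHOP), a factor tied to cell death under lasting stress. In the kidney, tubule cells are known to mount this response after ischemia.

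The targeted transcript was lower in every knockdown library. Sox9 was at 8.87 ± 0.236 FPKM (SD, n = 3) with siSox9 and 26.0 ± 0.496 FPKM with siNC, a log2 fold change of -1.45 (limma, adjusted p = 7.03e-06). The knockdown columns are headed "si3" rather than Sox9 in the table, and were read as siSox9 because they are the only other siRNA. Libraries held 23893197 to 25725743 reads as recovered from the FPKM steps. The first principal component of the tested genes (52.8% of the variance) separated the groups, and siNC replicate 1 stood apart from the other libraries on the second (16.6%), at 13.3 against -6.70 to 1.44. Of 18 tubule markers, 9 had a mean of at least 1 FPKM, led by Krt8, and Slc34a1, Slc5a2, Umod, Slc12a1, Slc12a3, Aqp2 and Calb1, which mark single nephron segments, each had group means under 0.1 FPKM. Of the proximal tubule markers, Lrp2 was at 2.41 with siSox9 and 2.13 with siNC, Cubn at 0.473 and 0.479, and Aqp1 at 0.244 and 0.211 FPKM. The summed tubule list ranged from 4054 to 4212 FPKM with siSox9 and from 3898 to 4105 FPKM with siNC, most of it Krt8 and Krt18. Cdh16, the kidney cadherin, was the 1 tubule marker of the 9 tested that passed, and it rose by 28.4% (130 ± 0.424 against 101 ± 2.84 FPKM, adjusted p = 0.000307), more than any of the 10 genes. The 8 leukocyte markers, none of them at 0 in all libraries and 4 of them at a mean of at least 1 FPKM, summed to 104 to 114 FPKM with siSox9 and 92.6 to 99.2 FPKM with siNC, most of it Lyz2. Of the 4 leukocyte markers tested, 1 rose and 0 fell, where 12.8% of all tested genes rose. The 7 endothelial markers summed to 3.16 to 3.39 and 3.44 to 4.41 FPKM and the 8 fibroblast and pericyte markers to 660 to 713 and 711 to 750 FPKM, in the same order. Nearly all of the fibroblast and pericyte sum was Acta2 (mean 707 FPKM), and only 2 of those 8 had a mean of at least 1 FPKM. The part of these other cell types, or of the rise in Cdh16, in the results below was not tested. In bulk RNA, fewer cells of a type and less RNA per cell cannot be told apart.

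After Sox9 knockdown, 5 of the 7 chaperone and foldase genes rose modestly, while Hsp90b1 and Pdia6 did not pass the test. Of the 3 transcription factor genes, Ddit3 rose and Atf4 and Xbp1 did not pass. Of the 10 genes, 6 rose (Hspa5, Pdia4, Canx, Calr, Ddit3 and Pdia3) and 0 fell at an adjusted p under 0.05, against 12.8% of the 12009 tested genes that rose and 17.6% that fell (30.4% in either direction). These shares are not matched on level, and most of the 10 are among the most abundant genes. With a filter at a mean of 5 FPKM, 6 of the 10 rose, against 1328 of 7495 genes that rose and 1376 that fell. The rises lay between 7.36% and 24.5%. The median log2 fold change was 0.11 over the 10 genes and -0.01 over all tested genes. In 8 of the 10, every siSox9 library lay above every siNC library, which held for 20.2% of all tested genes. When each library was centred on its median gene, 8 of the 10 rose against 16.3% of all genes, and rises made up 52.6% of all calls in place of 42.0%.

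**Figure D1:**
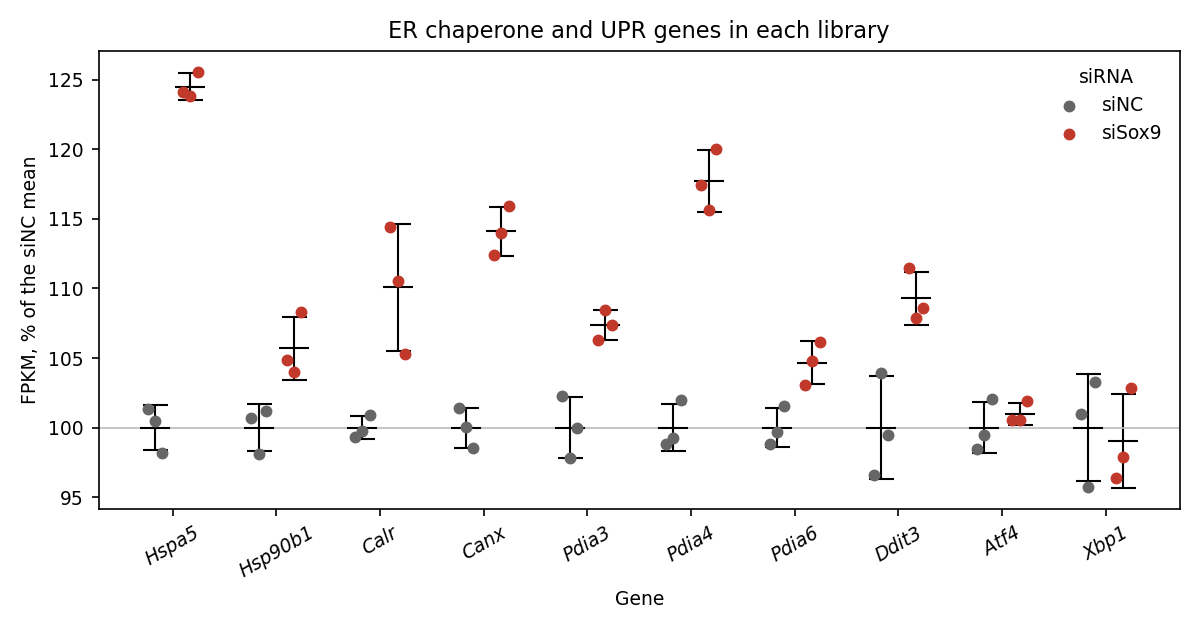
FPKM of each of the 10 genes as a percentage of its siNC mean (y axis, which does not start at 0), with a point per library, grey for siNC and red for siSox9, and bars for the mean and SD (n = 3). The siSox9 points lie above the siNC points for 8 genes, by 24.5% at the mean for Hspa5, while those of Atf4 and Xbp1 overlap.

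Hspa5 encodes BiP, the Hsp70 chaperone of the ER lumen that binds unfolded chains and holds the sensors inactive (chr2:34771970-34777547, plus strand, GRCm38). It was at 244.9, 244.4 and 247.9 FPKM in siSox9 replicates 1, 2 and 3, and at 200.1, 198.3 and 193.8 FPKM in siNC replicates 1, 2 and 3. The groups did not overlap, and the gap between them was larger than the spread within either. The means were 245.7 ± 1.89 and 197.4 ± 3.25 FPKM (SD, n = 3), a rise of 24.5% and a log2 fold change of 0.31 ± 0.03 (SE, adjusted p = 0.000344), the largest change of the 10 genes. The values rest on 20249 to 26646 reads per library, for which counting alone gives an error of 0.656%.

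Hsp90b1 encodes GRP94, the Hsp90 chaperone of the ER, which folds integrins and Toll-like receptors (chr10:86690209-86705509, minus strand). Its FPKM values were 109.4, 108.5 and 113.0 with siSox9 and 105.1, 102.3 and 105.6 with siNC. The groups did not overlap, but the difference of 5.70% did not pass (log2 fold change 0.08, 95% interval 0.01 to 0.15, adjusted p = 0.0855). Its exons overlap the annotated genes 1810014B01Rik, Gm15344 and Gm25745, and 13.8% of its 50-base words are shared with them, so reads there could have been split.

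Calr and Canx encode calreticulin and calnexin, the soluble and the membrane-bound lectin chaperones that hold glycoproteins during folding. Calr, the most abundant of the 10 (chr8:84841850-84846934, minus strand), was at 396.0, 382.4 and 364.5 FPKM with siSox9 and 343.8, 345.3 and 349.2 FPKM with siNC. The siSox9 libraries were spread more widely, and the lowest of them was still above every control. Calr rose by 10.1% (381.0 ± 15.8 against 346.1 ± 2.80 FPKM, log2 fold change 0.14 ± 0.04, adjusted p = 0.0285). Canx (chr11:50293961-50325673, minus strand) was at 162.4, 164.6 and 167.4 FPKM with siSox9 and 146.5, 144.5 and 142.3 FPKM with siNC, which do not overlap. Canx rose by 14.1% (164.8 ± 2.53 against 144.4 ± 2.07 FPKM, log2 fold change 0.19 ± 0.03, adjusted p = 0.00284).

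Pdia3, Pdia4 and Pdia6 encode protein disulphide isomerases, which form and rearrange disulphide bonds, and the Pdia3 product (ERp57) works with calnexin and calreticulin. Pdia4 (ERp72, chr6:47796141-47813430, minus strand) was at 97.3, 95.7 and 99.4 FPKM with siSox9 and 81.8, 82.2 and 84.4 FPKM with siNC. The groups were well apart, and Pdia4 rose by 17.7% (97.5 ± 1.84 against 82.8 ± 1.42 FPKM, log2 fold change 0.23 ± 0.03, adjusted p = 0.00147). Pdia3 (chr2:121413775-121438687, plus strand) was at 303.3, 309.5 and 306.4 FPKM with siSox9 and 291.9, 279.2 and 285.3 FPKM with siNC. It rose by 7.36%, with no overlap between the groups (306.4 ± 3.09 against 285.4 ± 6.34 FPKM, log2 fold change 0.10 ± 0.03, adjusted p = 0.0369). Pdia6 (P5, chr12:17266545-17284770, plus strand) was at 107.9, 109.8 and 111.2 FPKM with siSox9 and 103.5, 104.4 and 106.3 FPKM with siNC. The Pdia6 groups did not overlap either, yet the difference of 4.67% did not pass (log2 fold change 0.07, adjusted p = 0.117).

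Added together, the 7 chaperones and foldases came to 1421, 1415 and 1410 FPKM with siSox9 and to 1273, 1256 and 1267 FPKM with siNC, so every knockdown library lay above every control. As a share of all FPKM this was 0.480% to 0.494% against 0.413% to 0.453%. The highest gene of all was Gm23935, annotated as a short miRNA gene, in siNC replicates 2 and 3 and mt-Co1 in the other 4 libraries. With both left out of the total, the shares were 0.506% to 0.517% and 0.449% to 0.469%.

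Ddit3, Atf4 and Xbp1 encode transcription factors of the response. Ddit3 (CHOP, chr10:127290774-127296288, plus strand) was at 11.7, 11.3 and 11.4 FPKM with siSox9 and 10.1, 10.9 and 10.4 FPKM with siNC. The groups did not overlap, although the lowest siSox9 library and the highest siNC library were close to each other. Ddit3 rose by 9.29% (11.4 ± 0.199 against 10.5 ± 0.387 FPKM, log2 fold change 0.12 ± 0.04), with an adjusted p of 0.04998 that lay just under the threshold. It had 430 to 514 reads per library, for which the counting error was 4.63%, larger than the spread between libraries in either group. A further 8.92% of its 50-base words lie in Mars or in another annotated copy of Ddit3.

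Atf4, whose product is controlled mainly through translation (chr15:80255184-80257541 in the annotation, plus strand), was at 158.3, 158.3 and 160.5 FPKM with siSox9 and 155.1, 156.7 and 160.7 FPKM with siNC. The groups overlapped, and the log2 fold change was 0.01 (95% interval -0.05 to 0.08, adjusted p = 0.731). Xbp1 (chr11:5520659-5525893, plus strand) was at 34.6, 35.1 and 36.9 FPKM with siSox9 and 36.2, 34.3 and 37.0 FPKM with siNC, again overlapping. Its log2 fold change was -0.01 (95% interval -0.11 to 0.08, adjusted p = 0.830). Gene-level FPKM does not separate spliced from unspliced Xbp1 mRNA, nor does it measure translation of Atf4. The 3 transcription factor genes together came to 205, 205 and 209 FPKM with siSox9 and 201, 202 and 208 FPKM with siNC.

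The rises were not equally secure. Hspa5, Pdia4 and Canx passed under each of the 16 alternative treatments of the data, with log2 fold changes of 0.29 to 0.34, 0.22 to 0.26 and 0.15 to 0.22. Calr passed in 10 of 16, and its adjusted p was 0.0924 without siSox9 replicate 1, 0.0973 without siSox9 replicate 2, 0.0705 without siNC replicate 2 and 0.0727 without siNC replicate 3. Pdia3 passed in 5 of 16 and was lost when any 1 library other than siNC replicate 1 was left out (adjusted p from 0.0780 to 0.136). Ddit3 passed in 4 of 16 and was lost without any 1 library other than siNC replicate 2 (adjusted p from 0.0953 to 0.144). With siSox9 replicate 1, siSox9 replicate 2 or siNC replicate 3 left out, 3 of the 10 genes remained past the threshold, and without siNC replicate 1, the library that stood apart, 5 did (all but Ddit3).

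**Figure D2:**
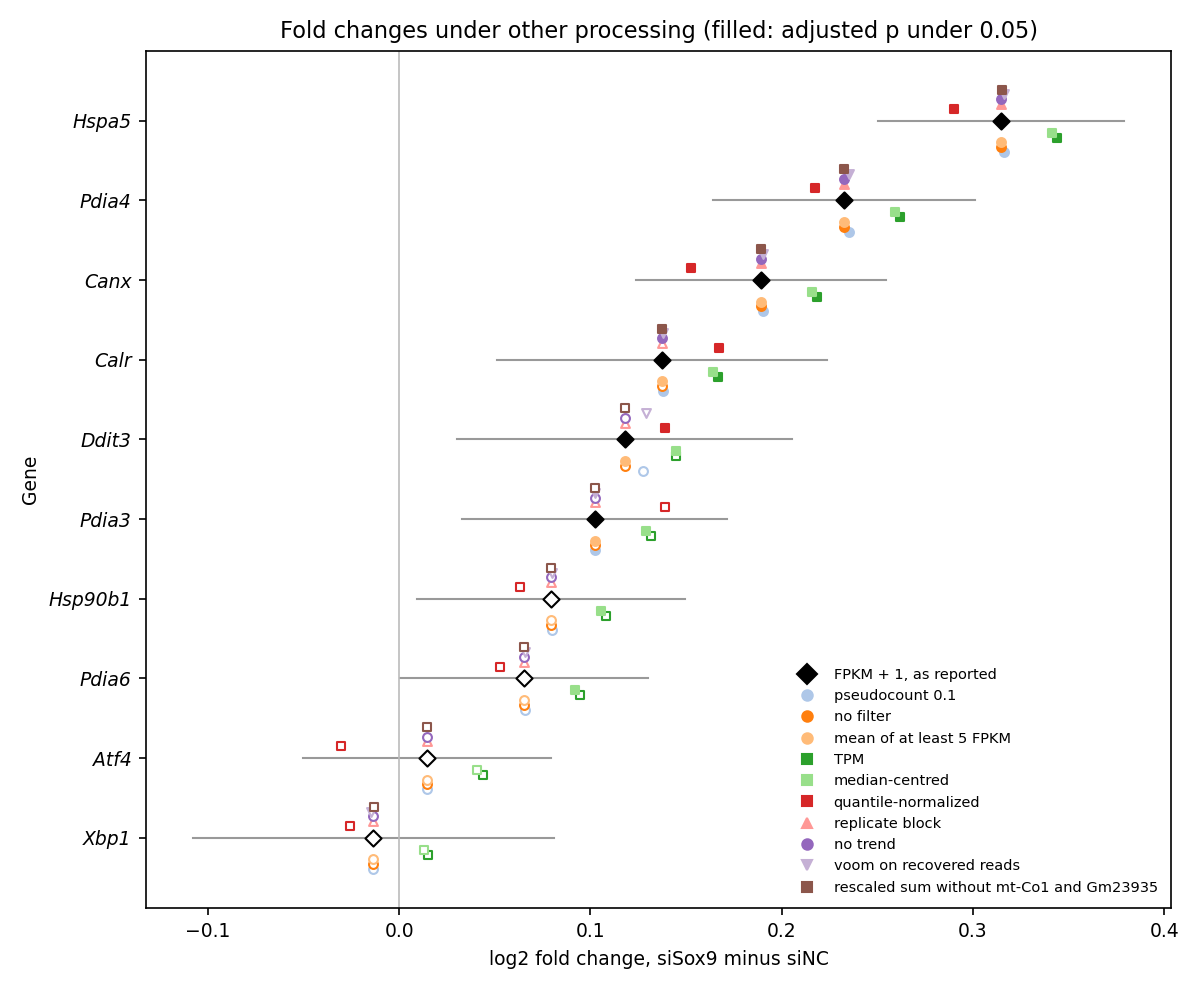
Log2 fold change of siSox9 over siNC (x axis) for each of the 10 genes (rows), with the reported value as a diamond on its 95% interval (line) and a smaller point for each alternative that keeps all 6 libraries, set apart vertically only for legibility and filled where the adjusted p is under 0.05. Every point is filled for Hspa5, Pdia4 and Canx, with Hspa5 between 0.29 and 0.34, whereas the points of Atf4 and Xbp1 lie on both sides of 0.

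The order of levels was nearly the same in both groups. For genes with whole reads, the length used in FPKM was that of the merged exons of all annotated transcripts. For Pdia6 it was 3745 bases against 2175 in the longest coding transcript, and for Pdia4 it was 2399 bases in both. The order between genes, and which of them change places, therefore depends on the length used. With siNC the order from the top was Calr, Pdia3, Hspa5, Atf4, Canx, Pdia6, Hsp90b1, Pdia4, Xbp1 and Ddit3. Only Pdia6 and Hsp90b1 overlapped with their neighbour in the order, in both groups. With siSox9 2 pairs of neighbours had changed places. Hsp90b1 came before Pdia6, whose values overlapped in both groups. Canx was below Atf4 with siNC (142 to 146 against 155 to 161 FPKM) and above it with siSox9 (162 to 167 against 158 to 161 FPKM). Calr stood at the 99.3 percentile of tested genes in the controls and Ddit3 at the 60.6 percentile.

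Pairs of genes with like roles were also compared as ratios within each library, which do not depend on how a library was scaled. The ratio of Hspa5 to Hsp90b1 FPKM was 2.24, 2.25 and 2.19 with siSox9 and 1.90, 1.94 and 1.83 with siNC, with no overlap (2.23 ± 0.0307 against 1.89 ± 0.0525). The ratio of Pdia4 to Pdia6 was 0.901, 0.872 and 0.894 against 0.790, 0.787 and 0.794, also with no overlap. That of Ddit3 to Atf4 was 0.0719 ± 0.00154 against 0.0665 ± 0.00257, again without overlap. For each of these 3 ratios the two-sided exact permutation p was 0.1, the smallest that 3 against 3 libraries allow, so none could pass 0.05. The ratio of Calr to Canx, the lectin pair, was 2.31 ± 0.131 against 2.40 ± 0.0535, and its groups overlapped (exact permutation p = 0.4). The 4 ratios were compared as 1 family, and after adjustment no p could lie under 0.1.

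**Figure D3:**
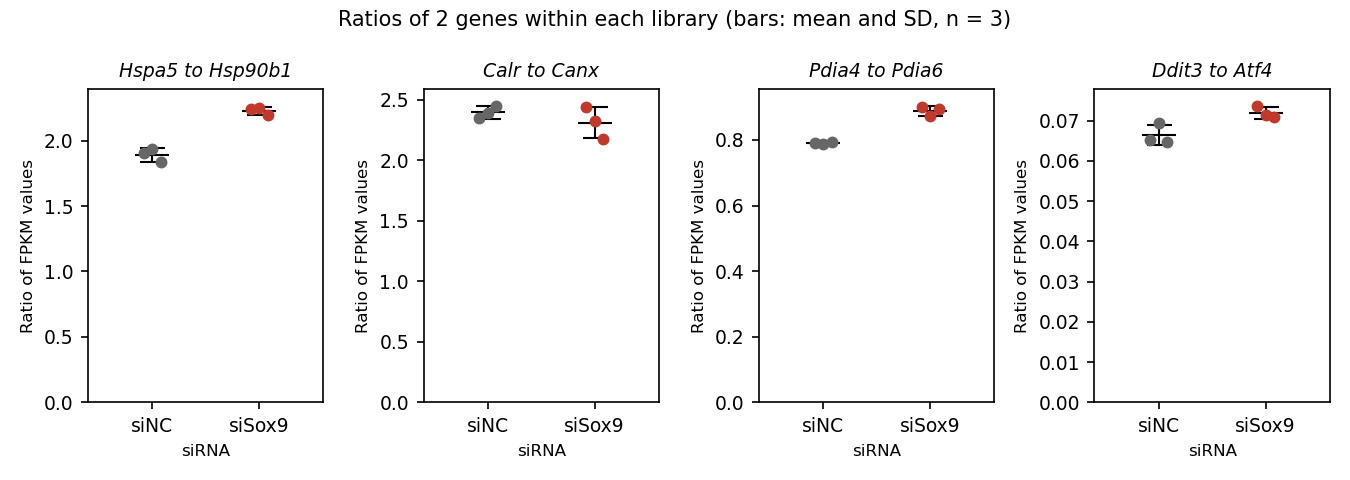
Ratio of FPKM within a library (y axis, from 0) for 4 pairs of genes (1 panel each, own scale), with a point per library, siNC in grey and siSox9 in red, and bars for the mean and SD (n = 3). The ratio of Hspa5 to Hsp90b1 lies at 2.19 to 2.25 with siSox9 and 1.83 to 1.94 with siNC, while the groups overlap for Calr to Canx.

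ATF6 and XBP1 are known to bind the ER stress response element (ERSE), written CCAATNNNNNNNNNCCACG, in chaperone promoters. The 300-base RefSeq promoter windows (GRCm38.p6, 250 bases before to 50 after the start) of all 10 genes were searched on both strands for this and 3 other motifs. Only exact matches to the letters were counted. ERSE stood in the windows of 5 of the 10 genes and in 39 of the 32851 windows of all genes (0.119%). The 6 matches are shown to let their spacers be compared, each 5′ to 3′ on the strand that reads CCAAT first, with CCAAT and CCACG in capitals.
Hspa5 (chr2:34772025-34772043, plus strand): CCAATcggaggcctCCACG
Hsp90b1, farther match (chr10:86705638-86705656, minus strand): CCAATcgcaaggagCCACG
Hsp90b1, nearer match (chr10:86705533-86705551, plus strand): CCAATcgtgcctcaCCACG
Calr (chr8:84847075-84847093, plus strand): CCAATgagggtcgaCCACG
Canx (chr11:50325800-50325818, minus strand): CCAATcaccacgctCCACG
Pdia6 (chr12:17266491-17266509, plus strand): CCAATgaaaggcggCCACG

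Measured from the RefSeq start, the match lay nearest in Hspa5, from 65 to 47 bases before it, and farthest in Hsp90b1, from 212 to 194 bases before it. The RefSeq start need not equal the start in the gene positions given above, and the Hspa5 match lies inside the position given for Hspa5. The Calr match and the nearer Hsp90b1 match read against the direction of the gene, and the other 4 read with it. Of the genes with a match, Hspa5, Calr and Canx rose, and Hsp90b1 (2 matches) and Pdia6 did not pass the test. Pdia4, which had the next largest rise after Hspa5, had no exact match, and neither did Pdia3, Ddit3, Atf4 or Xbp1. The windows of Pdia4, Pdia3 and Ddit3 do hold copies of ERSE with a single base changed, which were not counted or marked. How often such near copies occur over all windows was not counted, so a missing match does not mean that the element is absent. The 250 bases before the RefSeq start of Hspa5 and of Pdia4 are printed because these genes changed most, with the ERSE match in capitals. The Hspa5 window is chr2:34771840-34772089 on the plus strand, and the Pdia4 window is chr6:47813513-47813762 on the minus strand.
Hspa5 upstream window: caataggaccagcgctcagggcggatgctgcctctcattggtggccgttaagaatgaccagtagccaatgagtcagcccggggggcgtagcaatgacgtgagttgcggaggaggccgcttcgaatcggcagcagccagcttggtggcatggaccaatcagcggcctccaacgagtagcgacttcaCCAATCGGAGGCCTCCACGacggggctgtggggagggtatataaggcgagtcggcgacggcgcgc
Pdia4 upstream window: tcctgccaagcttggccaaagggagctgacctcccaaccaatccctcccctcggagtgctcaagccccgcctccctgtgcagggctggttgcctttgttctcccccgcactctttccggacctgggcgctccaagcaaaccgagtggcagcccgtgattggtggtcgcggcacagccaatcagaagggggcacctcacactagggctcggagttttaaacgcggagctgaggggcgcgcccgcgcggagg

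The other motifs were ERSE-II (ATTGGNCCACG, in 0.0365% of all windows), the core of the XBP1 site (TGACGTGG, in 0.676%) and the C/EBP-ATF element bound by ATF4 and CHOP partners (TTGCATCA, in 0.895%), and each was in 0 of the 10 windows. ERSE and ERSE-II share the letters CCACG, and the XBP1 core holds its reverse complement. A match is a description of letters, not of binding. Among the 9 tested genes outside the group with an ERSE match, 0 rose and 1 fell, where 12.8% of all tested genes rose and 17.6% fell. With only 9 genes, these counts say nothing further about the motif. The gene that fell was Alg12 (log2 fold change -0.32, adjusted p = 0.0289), and the median of the 9 was -0.04. These 9 include known targets of the response: Dnajc3 had -0.04 (adjusted p = 0.369), Creld2 -0.17 (adjusted p = 0.118) and Syvn1 0.16 (adjusted p = 0.0992). Creld2 passed only without siNC replicate 3 (-0.23, adjusted p = 0.0388).

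**Figure D4:**
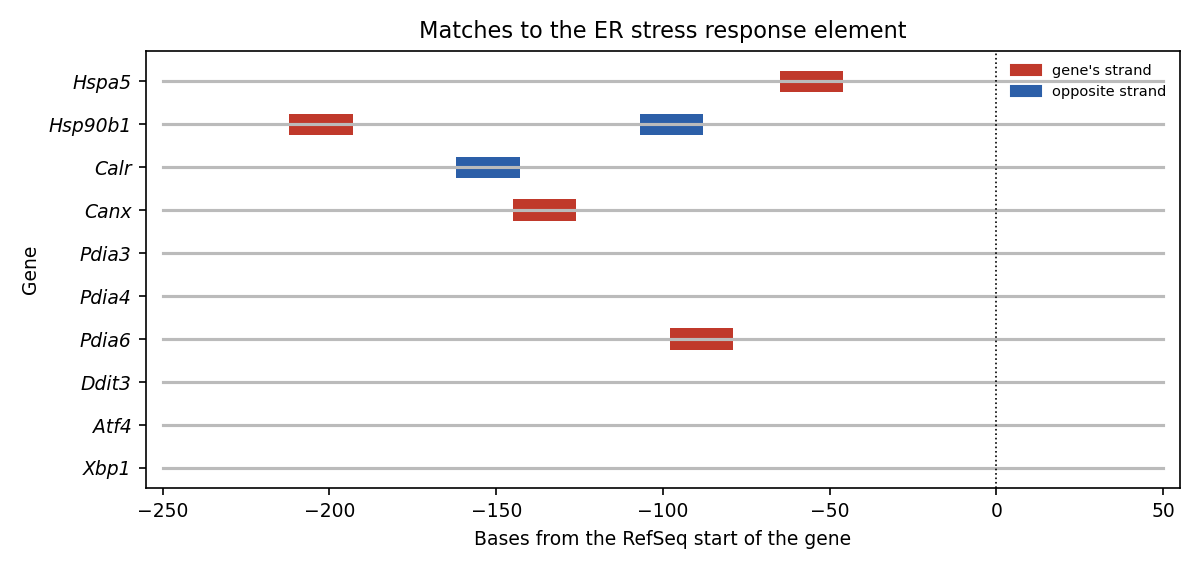
Position of the ERSE matches (boxes) in the promoter windows of the 10 genes (x axis, bases from the RefSeq start of the gene, and 1 row per gene), red on the gene's strand and blue on the opposite strand. A match is present in 5 genes, Hsp90b1 has 2, and the one nearest to the start is in Hspa5.

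The rest of the pathway was read from 7 lists of 154 genes, of which 149 were tested. Of these, 28 rose and 11 fell (18.8% and 7.38%, against 12.8% and 17.6% of all tested genes), with a median log2 fold change of 0.01 (all genes -0.01). Without siSox9 replicate 2 or siNC replicate 3 the number that rose was 18, and without siNC replicate 1 the number that fell was 17. Among 16 tested sensors and transducers, 4 rose and 0 fell, with a median of 0.06. Eif2ak3 (PERK) was at 27.8, 27.9 and 25.9 FPKM with siSox9 and 22.2, 20.2 and 21.05 FPKM with siNC, a rise of 28.5% (log2 fold change 0.35, adjusted p = 0.00179). Ern1 (IRE1) rose by 25.3% (7.82 ± 0.195 against 6.24 ± 0.115 FPKM, log2 fold change 0.28, adjusted p = 0.00151). Atf6 rose by 12.8% (log2 fold change 0.16, adjusted p = 0.0244), so that all 3 sensor genes of the response rose. The call on Atf6 was lost without any 1 library other than siNC replicate 1 (adjusted p from 0.0528 to 0.0769).

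The list named for the glucosidases and the calnexin cycle had 6 of 11 genes that rose and 0 that fell, with a median of 0.15. Of all tested genes, 12.8% rose and 17.6% fell. Of its glucosidase and calnexin cycle genes, Mogs, Ganab and Uggt1 rose, and Prkcsh and Uggt2 did not pass. The list also holds mannosidases and lectins that act in degradation. Of these, Man1b1, Os9 and Erlec1 rose, and Edem1, Edem2 and Edem3 did not pass. Ganab, the catalytic subunit of glucosidase II that trims glycans for calnexin binding, was at 76.1, 80.1 and 73.8 FPKM with siSox9 and 61.1, 55.3 and 60.9 FPKM with siNC. It rose by 29.7% (log2 fold change 0.37, adjusted p = 0.00192). Os9, a lectin that hands misfolded glycoproteins to degradation, rose by 25.7% (61.1 ± 3.14 against 48.6 ± 2.05 FPKM, adjusted p = 0.00289), and Mogs (glucosidase I) by 12.6% (adjusted p = 0.0204). Mogs was lost without siSox9 replicate 1 (adjusted p = 0.0709), siSox9 replicate 3 (0.0634) or siNC replicate 2 (0.0532). Edem1, a mannosidase-like protein, did not pass (log2 fold change -0.09, adjusted p = 0.252), but fell when siNC replicate 1 was left out (-0.15, adjusted p = 0.0487).

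Other ER chaperones and co-chaperones went both ways, 3 up and 2 down of 21 with a median of -0.01. These were 14.3% and 9.52%, against 12.8% and 17.6% of all tested genes. Creld1 rose by 36.8% (log2 fold change 0.43, adjusted p = 0.000691), while Cnpy3, a helper of GRP94 in folding Toll-like receptors, fell (7.41 ± 0.325 against 12.5 ± 1.36 FPKM, log2 fold change -0.68, adjusted p = 0.000846) and so did Cnpy2 (-0.34, adjusted p = 0.00372). Several chaperone genes that the response is known to raise did not pass: Hyou1 (0.10, adjusted p = 0.127), Dnajb9 (0.08, adjusted p = 0.141), Manf (0.06, adjusted p = 0.372) and Sdf2l1 (-0.13, adjusted p = 0.252). Hyou1 passed only without siNC replicate 1 (0.14, adjusted p = 0.0429). The oxidoreductases and prolyl isomerases had 4 up and 4 down of 25 (16% each way), with a median of -0.07. Tmx1, a membrane-bound disulphide isomerase relative, was at 13.1, 13.2 and 14.1 FPKM with siSox9 and 24.9, 24.9 and 25.0 FPKM with siNC. Its fall of 0.84 on the log2 scale (adjusted p = 5.11e-05) was the largest change in the 7 lists, and Fkbp7 (-0.45) and Fkbp14 (-0.38) fell as well, at adjusted p of 0.000845 and 0.00776. P4hb, the founding disulphide isomerase, had -0.02 (adjusted p = 0.650).

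Genes of ER-associated degradation, in a list that leaves out the mannosidases and lectins named above, had 3 up and 2 down of 23 with a median of 0.02. These were 13.0% and 8.70%, against 12.8% and 17.6% of all tested genes. Sel1l, the scaffold of the degradation ligase, fell by 0.23 on the log2 scale (adjusted p = 0.00424), Aup1 rose (0.19, adjusted p = 0.0159) and Rnf139 fell (-0.14, adjusted p = 0.0205), the last 2 with 26.5% and 29.3% of their 50-base words in other genes. Herpud1, a degradation factor induced by the response, had 0.02 (adjusted p = 0.843). Translocon, signal peptidase and oligosaccharyltransferase genes had 1 up and 1 down of 26 (3.85% each way), with a median of 0.00. Sec11a rose (0.25, adjusted p = 0.00572) and Sec61b fell (-0.18, adjusted p = 0.0297, with 41.0% of its words shared). Aup1, Rnf139 and Sec61b were each lost without siSox9 replicate 1 (adjusted p from 0.0568 to 0.0954), siSox9 replicate 2 (0.0503 to 0.0944) or siNC replicate 3 (0.0563 to 0.0813), and Aup1 and Sec61b also without siNC replicate 2 (0.0502 and 0.0815).

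Target genes of ATF4 and CHOP had 8 up and 2 down of 28 with a median of 0.01. Of the 28, 28.6% rose and 7.14% fell, against 12.8% and 17.6% of all tested genes. In either direction, 35.7% were called, against 30.4% of all tested genes. Nupr1, a stress-induced chromatin protein, was at 9.32, 9.93 and 8.77 FPKM with siSox9 and 5.67, 6.34 and 5.91 FPKM with siNC, a rise of 56.4% (log2 fold change 0.57, adjusted p = 0.000531). Ppp1r15a (GADD34), which reverses the block on translation, rose by 21.8% (log2 fold change 0.27, adjusted p = 0.00179). Shmt2 and Psat1, enzymes of serine and one-carbon metabolism, fell by 0.74 and 0.41 on the log2 scale (adjusted p = 8.85e-05 and 0.00148), with Shmt2 at 23.1 to 23.99 FPKM against 37.8 to 41.8 FPKM. Other enzymes of these pathways in the list, named after their values were seen, did not fall with them: Phgdh, the first enzyme of serine synthesis, rose by 21.3% (100 ± 3.63 against 82.5 ± 1.30 FPKM, adjusted p = 0.00147), and Mthfd2 (0.02, adjusted p = 0.818) and Psph (0.06, adjusted p = 0.525) did not pass. However, 63.1% of the 50-base words of Phgdh and 23.9% of those of Psph lie in other genes, so reads there could have been split. The classical targets Trib3 (0.01, adjusted p = 0.908), Chac1 (-0.01, adjusted p = 0.888), Asns (0.00, adjusted p = 0.980) and Atf3 (-0.01, adjusted p = 0.911) did not pass, and neither did Atf4 itself.

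**Figure D5:**
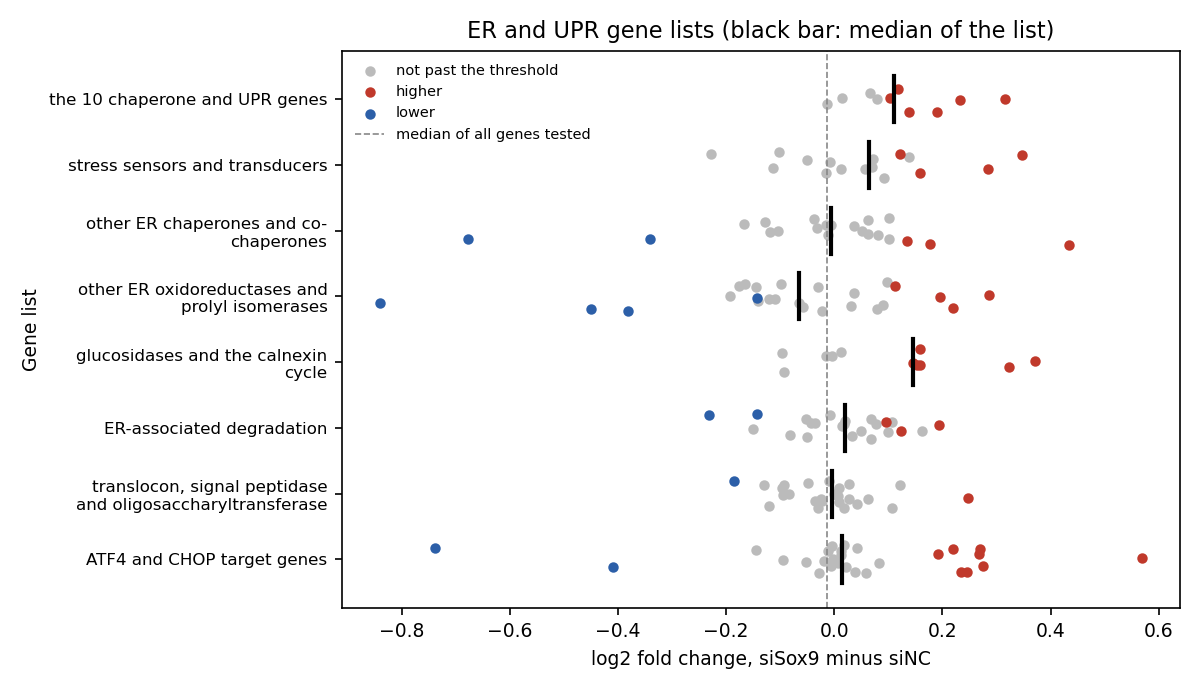
Log2 fold change of siSox9 over siNC (x axis) for every tested gene of the 10-gene group and of the 7 pathway lists (rows), red for genes that rose, blue for genes that fell and grey for genes that did not pass, with a black bar at each median and a dashed line at the median of all tested genes. The medians are 0.11 for the 10 genes and 0.15 for the glucosidases and calnexin cycle, and between -0.07 and 0.06 for the other 6 lists.

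Over the 6 libraries, the genes whose log2(FPKM + 1) was most like that of Hspa5 were Vat1 (Pearson r = 0.9986), Nop2 (0.9984) and F11r (0.9983), and 622 of 12009 genes had r over 0.95. For Ddit3 they were Ogfr (0.994), Trav14-2 (0.994) and Hagh (0.992), and 79 genes had r over 0.95. The libraries form 2 groups, so these values mostly restate which genes differ between siSox9 and siNC and are given as a description.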

How the data were processed

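RNA from 6 libraries (3 siSox9, 3 siNC, all after H/R) was sequenced on an Illumina NovaSeq, and the authors deposited 1 table of FPKM values per gene, with replicates kept apart. The submitters' processing notes name HISAT2 2.1.0, Bowtie2 2.2.3, TopHat2 and the build mm9, without roles, but 93.3% of the positions in the table equal those of GENCODE M21 on GRCm38, so positions are given on GRCm38. Multiplying each FPKM by the exon length gave whole reads (within 0.02) for about 91.0% of values, from which depth and counting error were taken. These errors cover counting only. Strand-specific counting is not given in the sources used here, so overlapping genes cannot be told apart.

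The 12009 genes that averaged 1 FPKM or more over the libraries were tested on log2(FPKM + 1), a scale that understates the change of low genes, with limma 3.58.1 in R 4.3.3 (lmFit, eBayes with trend, no replicate block), two-sided, siSox9 minus siNC, with Benjamini-Hochberg adjustment over all tested genes and a threshold of 0.05. Single ratios were compared by exact permutation over libraries. In simulated data, 99 genes were changed by 0.5 and 99 by 0.2 on the log2 scale. The other 11791 were unchanged, and the added spread was the same for every gene. There limma called 85 and 31 of the changed genes, so small changes were often missed. In these libraries 30.4% of tested genes were called, which makes the adjusted threshold less strict, so those rates do not carry over. Small changes may still be missed. Alternatives were a pseudocount of 0.1, other filters, TPM, median centring, quantile normalization, a replicate block, no trend and leaving out each library. Chosen after seeing the data were limma voom on recovered reads and a rescaling without mt-Co1 and Gm23935. The 10 genes, the lists and the motifs were chosen with earlier results of these data known. Named genes were the 10, the 3 largest called changes in each list, 16 further genes of the response, Sox9, and the 3 genes most like Hspa5 and Ddit3. Alg12, Dnajc3, Syvn1 and the marker genes are named beside these for their motif or cell type, and Phgdh, Mthfd2 and Psph were chosen after their values were seen. The remaining genes of the glucosidase and calnexin cycle list are named to show what it holds, also after their values were seen. Same-numbered libraries did not deviate together (r of deviations from the group means 0.06, -0.05 and 0.01), so the numbers were not taken as pairs.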

Additional observations from a re-analysis of the deposited data

How the results depend on the processing

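None of the 6 rises changed direction under any of the 16 alternatives, and Hspa5, Canx and Pdia4 passed under each. The number of the 10 that rose was 6, and it was 3 without a filter on low values, 3 with the replicate block, and 3 to 5 with 1 library left out. Without a filter, which tests more genes, Calr (0.14, limma adjusted p = 0.113), Pdia3 (0.10) and Ddit3 (0.12) no longer passed. The replicate block lost the same 3, Calr at 0.14 (adjusted p = 0.0543), Pdia3 at 0.10 (0.0783) and Ddit3 at 0.12 (0.0938); the numbers do not pair the libraries. On TPM, Pdia3 (0.13) and Ddit3 (0.14) were lost, on quantile-normalized values Pdia3 (0.14), without the trend Pdia3 (0.10) and Ddit3 (0.12), after rescaling without mt-Co1 and Gm23935 Pdia3 (0.10) and Ddit3 (0.12), with the pseudocount of 0.1 Ddit3 (0.13), and with voom Ddit3 (0.13). Median centring added Hsp90b1 (0.11, adjusted p = 0.0355) and Pdia6 (0.092, adjusted p = 0.0481). The cause of these changes was not tested. With 1 library left out, Calr ranged from 0.11 to 0.17, Pdia3 from 0.086 to 0.12 and Ddit3 from 0.10 to 0.14. Also with 1 library left out, genes called over the whole table ranged from 2431 (without siSox9 replicate 2) to 3653, against 3650 with all 6, and those of the pathway lists from 18 to 30 that rose and from 8 to 17 that fell. Under voom on all 6 libraries, 20 genes of the pathway lists fell.

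Values near 0 that did not pass changed sign. Atf4 was at -0.030 on quantile-normalized values. Xbp1 was at 0.015 on TPM and 0.013 after median centring, and ranged from -0.044 to 0.0092 with 1 library left out. On TPM and after median centring, in that order, P4hb was at 0.0072 and 0.0045, Chac1 at 0.016 and 0.015, Asns at 0.027 and 0.025, and Atf3 at 0.019 and 0.020, with Atf3 at 0.021 on quantile-normalized values. With 1 library left out, Herpud1 ranged from -0.017 to 0.065, P4hb from -0.042 to 0.0047, Trib3 from -0.051 to 0.068, Chac1 from -0.065 to 0.026, Asns from -0.036 to 0.025 and Atf3 from -0.022 to 0.015. Atf4 had no voom value because its reads did not come out whole. Depth limited Ddit3 most among the 9 of the 10 genes with recovered reads, with a counting error of 4.63%, and among the named list genes it was 8.67% for Fkbp7 and 6.21% for Fkbp14.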
